A study of Mus musculus with 2 samples.

Results

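The spliceosome and hnRNP genes of regulatory T cells (Tregs) were compared between Bcl11b-deficient and wild-type cells on 2 two-colour microarrays, each with one 60-base oligonucleotide per probe. The members were all gene probes whose name on the array started with Snrp, Hnrnp, Hnrp, Srsf, Sfrs, Sf3a, Sf3b or Prpf. They came to 72 genes read by 150 probes, out of 27948 genes on the array. Of the 72, 33 formed the snRNP class (12 Snrp genes, 8 SF3 genes and 13 Prpf genes), 19 the SR class and 20 the hnRNP class. In the SR class, 9 genes are now named Srsf, and the other 10 carried the old prefix Sfrs on the array and have since been renamed, such as Sfswap and Tra2b. Some family members stood on the array under other names and so were not members, among them Snrnp200.

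Bcl11b, a zinc finger protein, regulates transcription in T cells. The first array compared Foxp3-GFP Tregs sorted from Bcl11b F/F Cd4Cre Foxp3-GFP+ mice, in which Cre acts in developing T cells, with wild-type Foxp3-GFP Tregs. The second compared Tregs sorted from Bcl11b F/F Foxp3Cre mice, in which Cre acts once Foxp3 is expressed, with wild-type Tregs. The labels of the single arrays do not name the Cre driver: the array whose pools are labelled Foxp3-GFP+ was taken as the Cd4Cre one, because the study's design text names Foxp3-GFP for that system only, and the other as the Foxp3Cre one. Both wild-type pools came from 3 mice and all mice had the C57BL\6 background, and the labels give neither the number of deficient mice nor ages. On both arrays 825 ng of wild-type RNA in Cy3 and 825 ng of Bcl11b-deficient RNA in Cy5 were hybridised, so dye and genotype cannot be told apart. Every value below is a log2 ratio of the deficient over the wild-type signal unless a level is named, and a gene's value, direction and counts are those of its brightest probe unless another probe is named.

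A spliceosome is built on each intron from small nuclear ribonucleoproteins (snRNPs). A ring of Sm proteins, encoded by Snrp genes, sits on the U1, U2, U4 and U5 RNAs. The SF3a and SF3b complexes of the U2 snRNP hold the branch point, and most Prpf proteins belong to the U4/U6 and U5 particles or join the complex later. SR proteins bind exons and mostly promote their inclusion, whereas hnRNPs coat nascent transcripts and often act against it. In T cells, hnRNP LL and hnRNP L are known for the switch in CD45 splicing upon activation.

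Each Cre system had a single array, so a ratio from it carries no p-value and cannot be checked against a biological replicate. Repeated spots of 1 probe had a median SD of the log2 ratio of 0.056 (Cd4Cre) and 0.071 (Foxp3Cre) over 245 probes, and the median Feature Extraction error of the members was 0.21 on both arrays. These cover technical error only. Bcl11b itself read -2.46 and -1.82 at its brighter probe (chr12:109153847-109153906, mm9). Its dimmer probe read -1.19 and -0.32, so the size of the difference depended on the probe. Foxp3, which defines Tregs, had signals of 12.50 in the wild-type and 8.93 in the deficient pool of the Cd4Cre array, and of 10.02 and 9.82 on the Foxp3Cre array. It thus read -3.57 on the first, and all 8 detected Treg markers lay below 0 there (median -2.42). In the same pool 7 of 7 NK markers (median 3.36), 8 of 11 myeloid markers (median 3.58), both CD8 markers and 6 of 6 detected B cell markers lay above 0, and 15 of 15 proliferation genes did so (median 1.69). There the summed signal in the wild-type and the deficient pool was 242594 and 567964 for proliferation genes, 18555 and 258377 for NK markers and 47148 and 484912 for myeloid markers. The general T cell markers had a median of -0.89 and the 3 detected erythroid markers 0.72. On the Foxp3Cre array the Treg markers had a median of 0.11, the NK markers 0.57, the myeloid markers 0.53 and the proliferation genes 0.52, while 6 of 6 detected acinar gland markers were at least 2-fold lower (median -3.71, summed signal 87344 and 5569). Of the 11 myeloid markers there, 5 were at least 2-fold higher and 1 lower, where 2.93% and 11.5% of all genes were. The summed myeloid signal was 150087 in the wild-type and 267916 in the deficient pool. The T cell markers read -0.05, the CD8 markers 0.05, the B cell markers -0.03 and the erythroid markers 0.09 there (medians). Of the B cell markers, Pax5 was not well above background in any pool. The part of these cells and of proliferation in the results on the members was not tested. In pooled RNA, fewer cells of a type and less RNA per cell cannot be told apart.

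Of the 72 members, 70 were detected on both arrays, and all 70 were well above background in both channels of both. Snrpn, an imprinted neuronal Sm gene (2 probes), and Hnrnpul2 (1 probe) were not well above background in any pool. On the Cd4Cre array 3 members were at least 2-fold higher, where 11.4% of 15865 detected genes were, and 5 at least 2-fold lower, where 10.6% were. At 1.5-fold the counts were 17 higher (22.1% of all genes) and 14 lower (22.4% of all genes). On the Foxp3Cre array 1 member was at least 2-fold higher (2.93% of 15172 genes) and 8 at least 2-fold lower (11.5%). At 1.5-fold these were 5 higher (14.1% of all genes) and 19 lower (25.8% of all genes). The median member read 0.02 and -0.23, against -0.05 and -0.08 over all detected genes. Centring each array on its median without loess gave 0.65 and 0.56 for the members and 0.07 and 0.17 for all genes. Past 2-fold were thus 4.29% higher and 7.14% lower on the first array and 1.43% higher and 11.4% lower on the second, none of these shares above that of all genes. With median centring 21 and 16 of the 70 members (30.0% and 22.9%) were at least 2-fold higher, larger shares than over all genes (2858 of 15865 and 2043 of 15172), so that reading turned with the scaling. The groups of members differed in their medians.

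**Figure D1:**
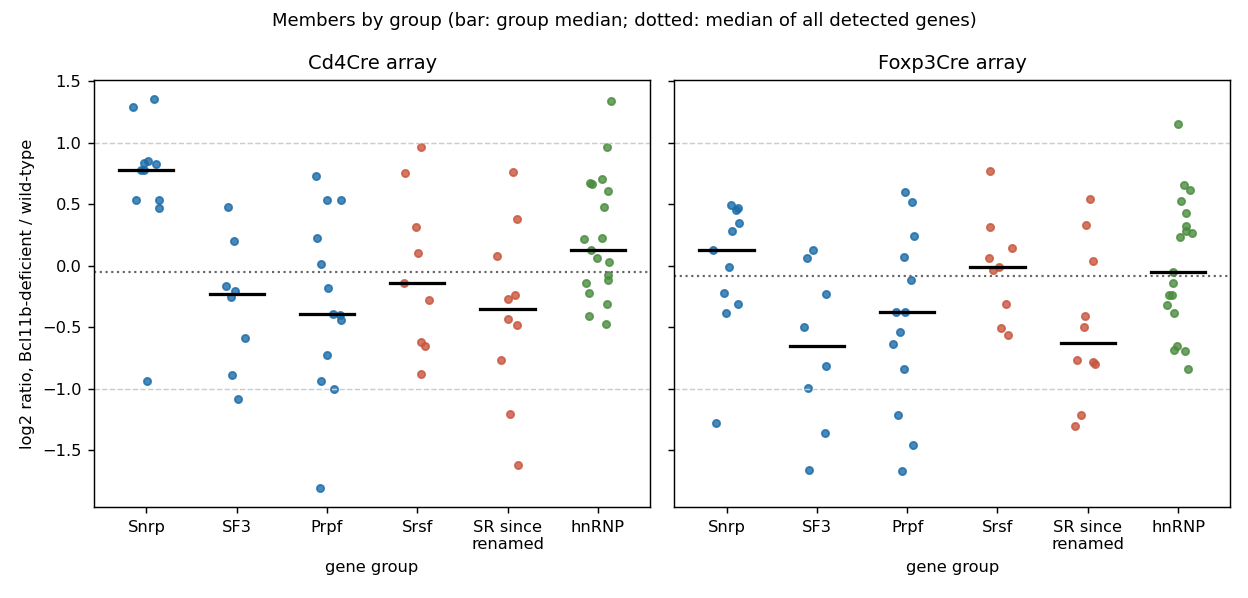
Each point is 1 detected gene, placed by its group on the horizontal axis and its log2 ratio of Bcl11b-deficient over wild-type signal on the vertical axis, for the Cd4Cre array on the left and the Foxp3Cre array on the right; black bars are group medians, the dotted line is the median of all detected genes and dashed lines mark 2-fold. The Snrp group lies highest on the left (median 0.78), while the SF3 group (median -0.66) and the renamed SR genes (median -0.63) lie lowest on the right.

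To show what was read, these are the probe sequences of 4 members that span an intron in the genome and so match spliced RNA (5′ to 3′, all in lower case, mm9). Prpf8 was the lowest snRNP gene (chr11:75320267-75321794, plus strand), and Sf3b1 is the branch point subunit (chr1:55069101-55071370, minus strand). The probes of Sfswap (chr5:130056705-130060319, plus strand) and Srsf11 (chr3:157680826-157682305, minus strand) are shown because other probes of the same genes gave another direction.
Sf3b1: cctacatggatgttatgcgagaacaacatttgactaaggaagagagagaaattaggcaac
Prpf8: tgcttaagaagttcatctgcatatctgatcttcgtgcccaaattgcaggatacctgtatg
Sfswap: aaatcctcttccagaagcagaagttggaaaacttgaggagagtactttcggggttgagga
Srsf11: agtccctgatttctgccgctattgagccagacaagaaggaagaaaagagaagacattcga

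Of the 150 member probes, 20 spanned an intron. Their median was 0.36 (Cd4Cre) and -0.14 (Foxp3Cre), against 0.06 and -0.08 for the other detected probes.

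The Snrp genes were the group furthest above the rest on the Cd4Cre array. Their median was 0.78, and 10 of 11 detected genes lay above 0 (7492 of 15865 over all genes). Of the 10, 7 were past 1.5-fold and 2 past 2-fold, where 22.1% and 11.4% of all genes were. On the Foxp3Cre array the Snrp median was 0.12, with 6 of 11 genes above 0. None was at least 1.5-fold higher there, where 14.1% of all genes were. These Foxp3Cre counts turned with the scaling. Centred on the median without loess, 10 of 11 lay above 0 and 7 were at least 1.5-fold higher, against 31.0% of all genes. All 11 had a higher ratio on the Cd4Cre array than on the Foxp3Cre array, as did 58.0% of all genes. The exception in direction on the Cd4Cre array was Snrnp70, described below.

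Snrpe encodes an Sm ring protein. Its log2 signal on the Cd4Cre array was 12.90 in the wild-type and 14.26 in the deficient pool, and on the Foxp3Cre array 13.92 and 14.38. The deficient pool was thus the brighter one on both, by 1.35 (2.56-fold) and 0.46.

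Snrpd1, another Sm protein, had signals of 13.09 and 14.38 on the Cd4Cre array and 14.01 and 14.47 on the Foxp3Cre array. Its ratios were 1.29 and 0.46, again with the deficient pool higher on both. For Snrpg, the Sm protein G, signals were 16.58 and 17.41, then 16.36 and 16.85, giving ratios of 0.83 and 0.49. Snrpd3 read 0.78 and 0.12, Snrpd2 0.53 and -0.01, and Snrpb, the Sm protein B, 0.53 and -0.31. Thus all 6 detected Sm ring genes were above 0 on the Cd4Cre array at their brightest probe, and 4 of them also on the Foxp3Cre array. The 3 probes of Snrpd3 ran from -0.21 to 0.78 on the first array. With median centring Snrpd2 read 0.56 and Snrpb 0.23 on the second.

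Among the particle-specific proteins, the U2 genes Snrpb2 (0.78 and 0.35) and Snrpa1 (0.47 and 0.28) were above 0 on both arrays. The U1 genes did not move alike. Snrpc read 0.85 and -0.22 and Snrpa 0.84 and -0.38, so both lay above 0 on the first array and below it on the second, a difference that has no test. On the second array Snrpc read 0.74 and Snrpa 0.51 with median centring, so their direction there turned with the scaling. The 4 probes of Snrpa ran from -0.38 to 0.07 on that array. Snrnp70, the U1 protein that binds the stem loop of U1 RNA, was lower on both. Its signals were 17.02 in the wild-type and 16.08 in the deficient pool on the Cd4Cre array, and 15.91 and 14.63 on the Foxp3Cre array. The ratios were -0.94 and -1.28 (2.43-fold lower), and its other probe read -1.67 and -1.46. With each array centred on its median without loess, Snrnp70 read 0.30 and -0.28, so its direction on the Cd4Cre array turned with the scaling.

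The SF3 genes had medians of -0.23 and -0.66 (0.08 and -0.07 with median centring). On each array 6 of 8 lay below 0 (4 of 8 with median centring), against 8373 of 15865 and 8285 of 15172 of all genes. At least 1.5-fold lower were 3 (Cd4Cre) and 4 (Foxp3Cre), where 22.4% and 25.8% of all genes were. None was 1.5-fold higher on either, where 22.1% and 14.1% of all genes were. Sf3b2, an SF3b subunit, had signals of 15.80 in the wild-type and 14.71 in the deficient pool on the Cd4Cre array, and of 15.41 and 13.75 on the Foxp3Cre array. The ratios of -1.09 and -1.66 (3.16-fold lower) placed it below 2-fold on both. Sf3b3 read -0.21 and -1.36, with its 3 probes between -0.62 and -0.21 on the first array and between -1.62 and -0.99 on the second.

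Sf3a1, the largest SF3a protein, read -0.59 and -0.99, and its second probe -0.38 and -0.70. For Sf3b1 the intron-spanning probe printed above read -0.89 and -0.50, while a probe elsewhere in the gene read -0.11 and 0.52, so its direction on the Foxp3Cre array depended on the probe. Sf3b4 (0.20 and -0.82) was above 0 on the first array and below it on the second. Sf3b5, a small SF3b subunit, was above 0 on both (0.48 and 0.12). Sf3a3 read -0.17 and -0.23, and Sf3a2 -0.26 and 0.06.

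The Prpf genes had medians of -0.40 and -0.38 (0.23 and -0.12 with median centring). Of the 13, 8 and 9 lay below 0 (5 and 7 with median centring), against 8373 of 15865 and 8285 of 15172 of all genes. The lowest member of all was Prpf8, which forms the core of the U5 snRNP around the catalytic RNA. Its signals were 14.67 in the wild-type and 12.86 in the deficient pool on the Cd4Cre array, and 13.38 and 11.71 on the Foxp3Cre array. The ratios were -1.81 (3.50-fold lower) and -1.67 (3.19-fold lower), and its intron-spanning probe read -1.73 and -2.07, so both probes gave the same direction on both arrays. Prpf6, which bridges U5 and U4/U6, had signals of 14.87 and 13.87, then 14.82 and 13.36, for ratios of -1.0 and -1.46. Prpf8, Prpf6 and Sf3b2 were the 3 members at least 2-fold lower on both arrays, and no member was at least 2-fold higher on both. Prpf6 stood right at the 2-fold line on the Cd4Cre array, from 1 detected probe. It read -0.89 there with the scanner software's ratio, short of 2-fold.

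Prpf19, the ubiquitin ligase of the complex that activates the spliceosome, showed no difference on the Cd4Cre array beyond its technical error (13.39 and 13.40). On the Foxp3Cre array it was lower (13.18 and 11.96, ratio -1.22). The U4/U6 proteins Prpf3 (-0.40 and -0.63) and Prpf31 (-0.44 and -0.38) lay below 0 on both arrays, though another Prpf31 probe read 0.03 and -0.17. Their partner Prpf4 read 0.22 and 0.07 at its brightest probe and -0.29 and -0.70 at its intron-spanning probe. Of the U1-associated genes, Prpf39 (-0.73 and -0.54) and Prpf40b (-0.94 and -0.37) were below 0 on both, with a second Prpf39 probe at -0.31 and 0.08. Prpf38b read 0.54 and -0.84 at its brightest probe, opposite in sign by more than 0.5 on each. Its other probe read only 0.20 and -0.17. The kinase gene Prpf4b read -0.40 and 0.60, with detected probes from -0.59 to 0.75 on the Foxp3Cre array, Prpf18 -0.19 and 0.52, with a further probe at 0.46 and 0.96. For Prpf38a the brightest probe read 0.54 and 0.24 and the other -1.15 and -0.78, so its direction depended on the probe on both arrays. That other probe was dim, and its deficient signal was not well above background on either array (technical error 0.48 and 0.505).

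The snRNP class as a whole had medians of 0.11 and -0.27 (0.66 and 0.53 with median centring). Of its 32 detected genes 2 (6.25%) were at least 2-fold higher and 3 (9.38%) lower on the Cd4Cre array, where 11.4% and 10.6% of all genes were. On the Foxp3Cre array none was higher and 6 (18.8%) were lower, against 11.5% of all genes, made up of Snrnp70, 2 of 8 SF3 genes and 3 of 13 Prpf genes. With median centring 1 of the 32 was at least 2-fold lower there. Within the class the median of the Snrp genes exceeded that of the Prpf genes by 1.17 (Cd4Cre) and 0.50 (Foxp3Cre). Over the 11 processing settings tried this gap ranged from 0.80 to 1.52 and from 0.43 to 1.03. The gap to the SF3 genes was 1.01 and 0.78, ranging from 0.93 to 1.67 and from 0.62 to 0.98. Not all 11 settings were separate checks, since the deposited value table equalled the scanner software's ratio. Requiring both channels or keeping outlier spots left every median of the member groups as reported. The sign of each group's own median was less settled. Median centring without loess brought the median of the 5570 genes with a log2 intensity of at least 12 to 0.54 and 0.55, and 61 members were that bright. It turned the SF3 and Prpf medians above 0 on the Cd4Cre array (0.08 and 0.23) and left them just below 0 on the Foxp3Cre array (-0.07 and -0.12), while the Snrp medians became 1.75 and 0.91. Of the 34 members below 0 on the Cd4Cre array 17 then lay above it, and of 42 on the Foxp3Cre array 21 did. Prpf8 stayed at least 2-fold lower on both arrays (-1.27 and -1.26), whereas Prpf6 read -0.31 and -0.75 and Sf3b2 -0.19 and -0.84.

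**Figure D2:**
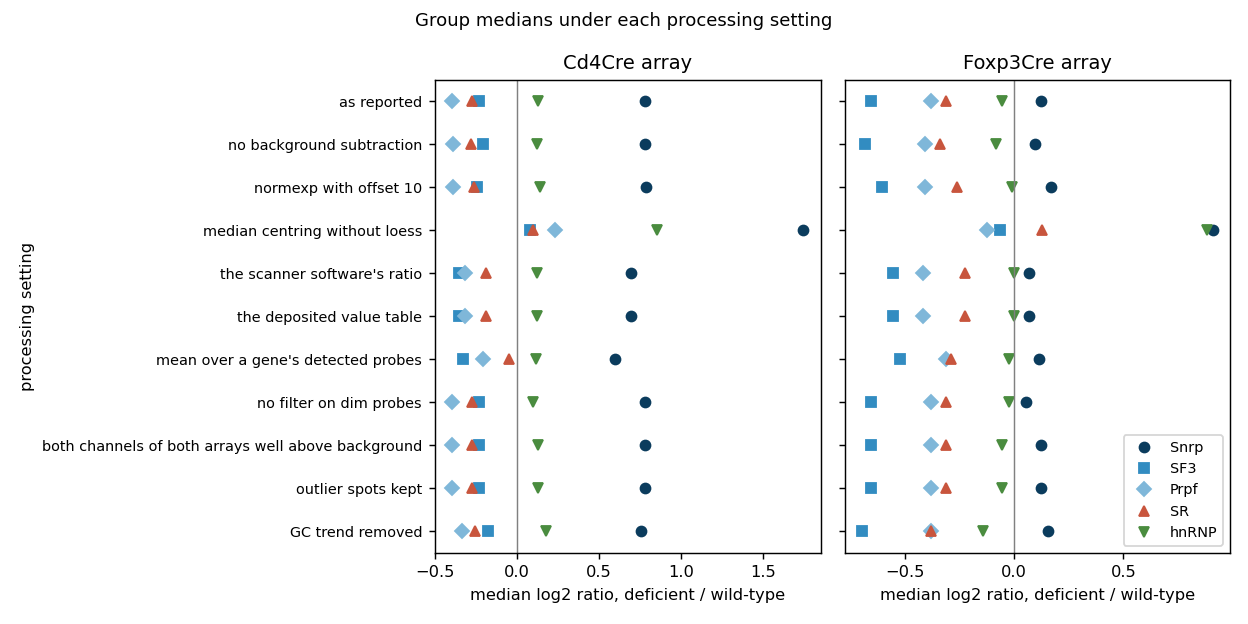
Horizontal axes give the median log2 ratio of deficient over wild-type signal of each group, for the Cd4Cre array on the left and the Foxp3Cre array on the right; each line of the vertical axis is 1 processing setting, and symbols mark the 5 groups. The Snrp circles lie right of the SF3 squares and the Prpf diamonds in every line, and median centring without loess shifts the whole set to the right.

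Upstream DNA of members that stood high or low is set side by side here to show the letters before their starts. A promoter entry was found for 63 of the 72 members (RefSeq, GRCm38.p6), and the 250 bases before the transcription start were searched on both strands for 6 short motifs. Capitals mark a match to CCGGAAG (ETS factors), GCATGCGC (NRF1), GGGCGG (Sp and KLF factors), CCAAT (the CCAAT box), TATAAA (the TATA box) or TGACG (the CRE core), and matches can overlap. Printed are the upstream bases of Snrpg (chr6:86371290-86371539, plus strand), Snrnp70 (chr7:45395743-45395992, minus strand), Sf3b2 (chr19:5295458-5295707, minus strand), Prpf8 (chr11:75486527-75486776, plus strand) and Hnrnpa3 (chr2:75659009-75659258, plus strand).
Snrpg: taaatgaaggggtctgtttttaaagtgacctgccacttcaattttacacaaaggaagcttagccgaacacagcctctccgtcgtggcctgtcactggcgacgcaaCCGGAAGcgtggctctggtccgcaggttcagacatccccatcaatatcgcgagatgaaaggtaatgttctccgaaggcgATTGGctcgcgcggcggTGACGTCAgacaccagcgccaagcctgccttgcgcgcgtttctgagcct
Snrnp70: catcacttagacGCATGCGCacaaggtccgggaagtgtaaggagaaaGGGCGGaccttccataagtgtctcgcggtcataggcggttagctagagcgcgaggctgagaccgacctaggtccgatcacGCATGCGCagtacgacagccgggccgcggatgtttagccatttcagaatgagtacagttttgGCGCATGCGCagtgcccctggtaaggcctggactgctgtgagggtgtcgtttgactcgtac
Sf3b2: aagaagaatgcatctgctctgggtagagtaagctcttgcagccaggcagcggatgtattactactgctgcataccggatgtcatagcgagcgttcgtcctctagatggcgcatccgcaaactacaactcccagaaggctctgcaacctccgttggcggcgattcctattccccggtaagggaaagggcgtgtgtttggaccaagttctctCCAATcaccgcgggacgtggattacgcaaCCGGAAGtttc
Prpf8: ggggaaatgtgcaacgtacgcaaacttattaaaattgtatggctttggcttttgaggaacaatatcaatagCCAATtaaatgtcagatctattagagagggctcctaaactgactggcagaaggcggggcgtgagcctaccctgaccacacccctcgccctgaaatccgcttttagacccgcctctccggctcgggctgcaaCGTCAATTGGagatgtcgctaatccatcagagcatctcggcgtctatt
Hnrnpa3: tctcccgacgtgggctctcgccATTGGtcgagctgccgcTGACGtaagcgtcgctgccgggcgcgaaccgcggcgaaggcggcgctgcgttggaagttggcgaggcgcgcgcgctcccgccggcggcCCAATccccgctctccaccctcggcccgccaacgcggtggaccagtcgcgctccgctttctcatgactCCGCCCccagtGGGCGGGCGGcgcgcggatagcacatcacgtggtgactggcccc

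The NRF1 letters stood 4 times before Snrnp70, 2 of them overlapping, and in 2 of 63 members (3.17%) against 2.32% of 27025 promoters. The ETS letters were found before 18 of 63 members (28.6%) against 7.05% of all promoters, and before 5 of 6 SF3 genes, 4 of 9 Srsf genes, 3 of 10 Snrp genes, 2 of 11 Prpf genes, 2 of 9 renamed SR genes and 2 of 18 hnRNP genes. The CCAAT letters stood before 27 members (42.9%, against 34.5% of all promoters), with 12 of 18 hnRNP genes and 3 of 10 Snrp genes. GGGCGG was found before 42 members (66.7%, against 32.9%), TGACG before 26 (41.3%, against 17.9%), and TATAAA before 6 (9.52%, against 13.0%). Members' upstream sequence was also richer in G and C, with a median of 58.8% against 52.0% over all promoters. The ETS letters stood before both Snrpg, which read above 0, and Sf3b2, which read below it. A match is a match of letters and says nothing of binding.

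The SR class had medians of -0.27 (Cd4Cre) and -0.31 (Foxp3Cre), which turned to 0.10 and 0.13 with median centring. On each array 12 of 19 genes lay below 0, as did 8373 of 15865 and 8285 of 15172 of all genes, and 2 of 19 were at least 2-fold lower, where 10.6% and 11.5% of all genes were. The genes now named Srsf had medians of -0.14 and -0.01 (0.65 and 0.90 with median centring), and none of the 9 reached 2-fold. The renamed genes had medians of -0.35 and -0.63 (-0.04 and -0.19 with median centring), and the gap between these groups was 0.22 and 0.62 (0.22 to 0.69 and 0.50 to 1.08 over the settings).

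Among the Srsf genes, Srsf3, which binds its own transcript, was above 0 on both arrays. Its signals were 9.17 in the wild-type and 9.92 in the deficient pool on the Cd4Cre array, and 10.14 and 10.91 on the Foxp3Cre array (ratios 0.75 and 0.77). A second Srsf3 probe read only 0.12 and -0.27. Srsf9 went apart between the arrays, with signals of 13.88 and 14.84 on the first and of 14.01 and 13.50 on the second (0.97 and -0.51). With median centring Srsf9 read 1.66 and 0.13, so its direction on the Foxp3Cre array turned with the scaling. Srsf1, the founding SR protein, read 0.10 and 0.06 at its brightest probe and 0.46 and 0.49 at another. Srsf7 read -0.14 and 0.15 at its brightest probe and 0.76 and 0.78 at another.

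Srsf6 (-0.62 and -0.31) and Srsf4 (-0.28 and -0.56) lay below 0 on both arrays, and each had a second probe below 0 as well. Srsf5 read -0.65 and 0.32. The brightest probe of Srsf2 read 0.31 and -0.01, and its 4 probes ran from 0.31 to 1.33 on the Cd4Cre array. For Srsf11 the brightest probe read -0.88 on the Cd4Cre array and the intron-spanning probe printed above 0.80, while both were near 0 on the Foxp3Cre array (-0.03 and -0.19).

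The renamed SR genes held all 4 members of the class that reached 2-fold. Under median centring this no longer held. Clasrp then read -0.45 and -0.17 and Scaf4 0.10 and -0.82. Sfswap was still at least 2-fold lower on the Cd4Cre array (-1.09) and Sugp2 on the Foxp3Cre array (-1.23). Sfswap, the homologue of the fly splicing regulator suppressor of white apricot, had signals of 14.54 in the wild-type and 12.92 in the deficient pool on the Cd4Cre array, and of 13.50 and 12.72 on the Foxp3Cre array (-1.62 and -0.78). Its 4 probes ran from -1.62 to 0.84 and from -1.21 to 0.15, and their mean was -0.32 and -0.61. Clasrp, a partner of the kinase Clk4 read by 1 probe, had signals of 15.26 and 14.05, then 14.15 and 13.35, for ratios of -1.20 and -0.80. Sugp2 had signals of 11.37 and 10.60, then 10.64 and 9.34. It read -0.76 and -1.30, and all 3 of its probes lay between -0.80 and -0.58 on the first array and between -1.31 and -0.77 on the second.

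Scaf4, which binds the tail of RNA polymerase II, read -0.27 and -1.21, with a dimmer probe at 1.08 and -0.85. Its relative Scaf11 read -0.44 and -0.50 (other probe 0.33 and -0.13), and Pnisr -0.49 and -0.41 (other probe 0.08 and -1.18). Srek1 was opposite in sign by more than 0.5 on each array (0.76 and -0.77), but its 4 probes ran from -0.98 to 0.76 and from -1.01 to 0.39. Tra2b, an SR-like activator of exon inclusion, read -0.24 and 0.54, and its other probe -0.38 and -0.50. Srek1ip1 was above 0 on both (0.38 and 0.33). Akap17b read 0.08 and 0.04, within its technical error, and its other probe 0.22 and -0.62.

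The hnRNP class had medians of 0.13 and -0.05 (0.86 and 0.88 with median centring), with 12 and 9 of 19 detected genes above 0. By its brightest probe, no gene of the class was at least 2-fold lower on either array, where 10.6% and 11.5% of all genes were. On each array 1 of 19 (5.26%) was at least 2-fold higher, where 11.4% (Cd4Cre) and 2.93% (Foxp3Cre) of all genes were. These were Hnrnpl on the Cd4Cre array and Hnrnpa3 on the Foxp3Cre array. The count of higher genes turned with the scaling. With median centring 8 (Cd4Cre) and 7 (Foxp3Cre) of the 19 genes were at least 2-fold higher. Both were larger shares than over all genes (2858 of 15865 and 2043 of 15172). The hnRNP genes were bright, with a median log2 intensity of 15.01.

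Hnrnpa3, an A/B-type hnRNP, had signals of 16.82 in the wild-type and 17.49 in the deficient pool on the Cd4Cre array, and of 16.24 and 17.39 on the Foxp3Cre array. Its ratios were 0.67 and 1.15 (2.22-fold), the highest of the class by their mean. The 4 probes ran from -0.67 to 1.29 and from 0.39 to 1.15, so the direction held for every probe on the second array and not on the first. With the scanner software's ratio it read 0.88 on the Foxp3Cre array, and then no member was at least 2-fold higher there. Hnrnpa2b1 read 0.70 and 0.53, with a second probe at -0.09 and -0.26. Hnrnpa1, the best known of this type, read 0.67 and 0.28, with its 4 probes from -0.36 to 0.69 and from -0.06 to 0.85.

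Hnrnpk, which binds poly(C), had signals of 16.84 and 17.44, then 16.84 and 17.50, for ratios of 0.60 and 0.66, with another probe at -0.15 and 0.38. Hnrnpab had signals of 16.70 and 17.66, then 17.14 and 17.46, for ratios of 0.96 and 0.32. Its mean over 4 probes on the Foxp3Cre array was -0.02. Hnrnpl, a CA-repeat binding protein and a regulator of CD45 exons, had signals of 12.10 and 13.43 on the Cd4Cre array and 13.20 and 12.81 on the Foxp3Cre array. It was therefore higher in the deficient pool on the first array (1.34, 2.52-fold) and lower on the second (-0.39), from 1 probe. With median centring Hnrnpl read 1.66 and 0.10, so its direction on the Foxp3Cre array turned with the scaling. Hnrnpll, the other CD45 regulator, read 0.06 and 0.43, with 4 probes from -0.34 to 0.31 and from -1.31 to 0.43.

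Several hnRNP genes lay below 0 by less than 2-fold at their brightest probe. Most of these directions turned with the scaling. Under median centring 19 of 19 detected genes of the class lay above 0 on the Cd4Cre array and 17 of 19 on the Foxp3Cre array. Only Hnrnpa0 (-0.45) and Hnrnpul1 (-0.05) then stayed below 0, both on the Foxp3Cre array. Hnrnpa0 read -0.08 and -0.84, with a second probe at 0.30 and -1.28, and its mean over both probes on the Foxp3Cre array (-1.06) was past 2-fold. Hnrnpu, a scaffold of nuclear RNA, had signals of 16.51 and 16.29, then 16.41 and 15.72 (-0.22 and -0.69), and Hnrnpd, an AU-rich element binding protein, read -0.14 and -0.66. Hnrnpr read -0.41 and -0.32 at its brightest probe and 0.64 and -1.18 at its other probe. Hnrnpm read -0.31 and -0.24, and Hnrnph1, which binds G tracts, -0.48 and -0.05. Among its relatives, Hnrnph2 read 0.13 and 0.23. Hnrnpf read 0.22 and 0.61 at its brightest probe and -0.82 and 0.50 at its other probe, and Hnrnph3 0.03 and -0.24 with another probe at 0.49 and 0.39. Hnrnpc, which binds poly(U), read 0.48 and 0.27 (other probe -0.26 and 0.65). Hnrnpul1 read 0.22 and -0.68. The 3 probes of Hnrnpdl read -0.12 and -0.14, 0.29 and 0.05, and -0.26 and 0.37.

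**Figure D3:**
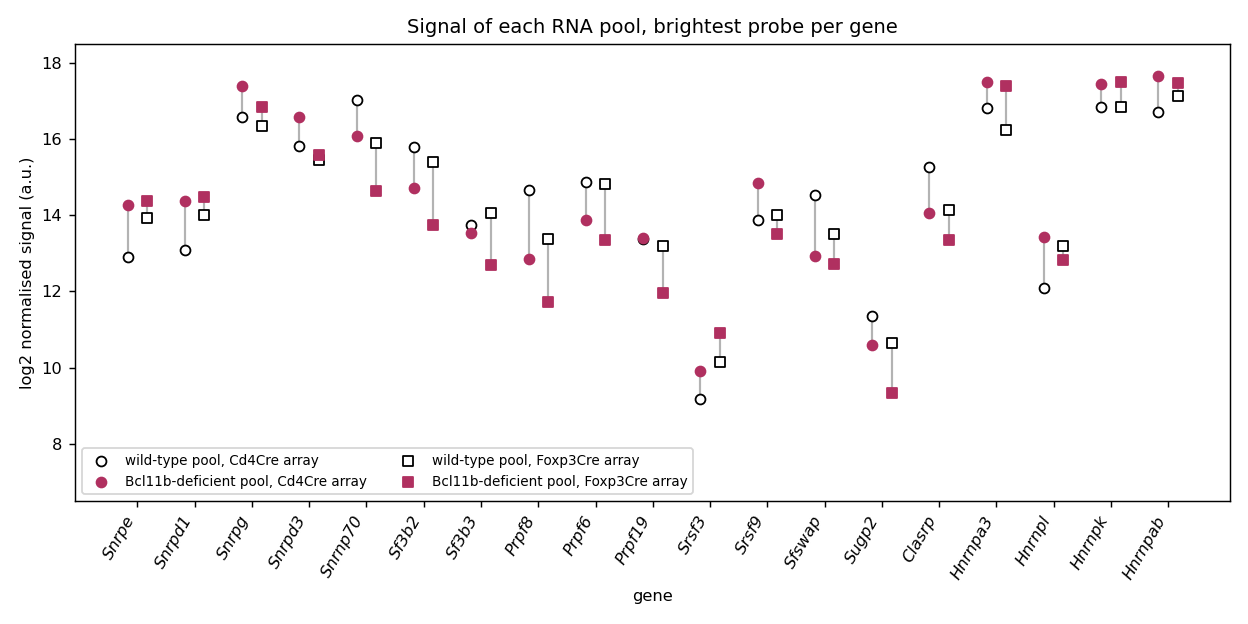
The vertical axis gives the log2 normalised signal of each RNA pool for 19 members, listed along the horizontal axis; circles are the Cd4Cre array, squares the Foxp3Cre array, open symbols wild type and filled symbols Bcl11b-deficient, joined by a line per array. Prpf8, Sf3b2 and Prpf6 have the filled symbol at least 2-fold below the open one on both arrays, and Snrpe, Snrpd1 and Hnrnpa3 have it above on both.

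Set side by side, 22 of the 70 members were above 0 on both arrays and 28 below 0 on both, where the shares over 14364 genes were 30.2% and 37.9%. A further 14 were above 0 on the Cd4Cre array and below 0 on the Foxp3Cre array, and 6 the reverse. The members' ratios on the arrays correlated (Pearson r = 0.56, Spearman rho = 0.52, n = 70 genes), as did those of all genes (0.48 and 0.50). Both arrays share the platform and the dye orientation, and genes are not independent replicates. The snRNP class had a higher ratio on the Cd4Cre array in 24 of 32 genes, the SR class in 10 of 19 and the hnRNP class in 11 of 19. The correlation of the ratio with the probes' GC content was -0.12 and -0.27 over the members, and -0.07 and -0.13 over all genes.

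**Figure D4:**
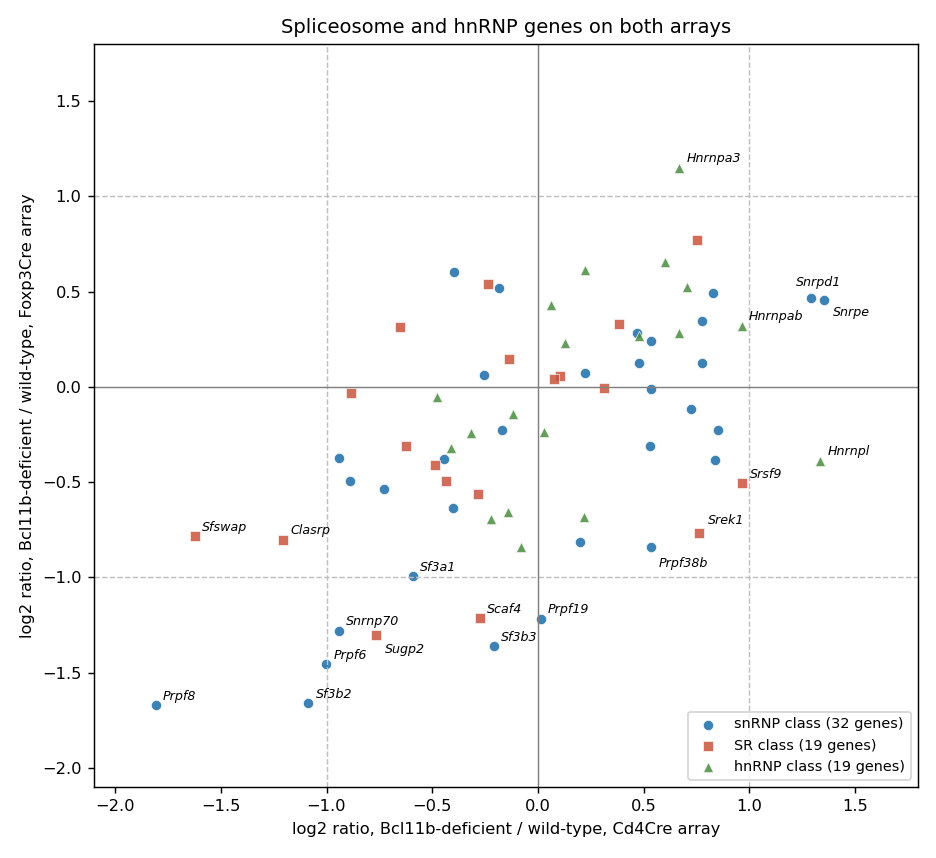
Each point is 1 of 70 detected members, with its log2 ratio of deficient over wild-type signal on the Cd4Cre array on the horizontal axis and on the Foxp3Cre array on the vertical axis; circles are the snRNP class, squares the SR class and triangles the hnRNP class, and dashed lines mark 2-fold. Prpf8, Sf3b2 and Prpf6 lie in the lower left beyond or on both 2-fold lines, Snrpe and Snrpd1 at the right, and Hnrnpa3 at the top.

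A limma fit of each gene's mean ratio, which had 1 residual degree of freedom and was adjusted over 14364 genes, called 0 genes at an adjusted p under 0.05 (0%), and 0 members. At an unadjusted p under 0.05 it held 12 of 70 members against 22.6% of all genes. The lowest limma adjusted p of a member was 0.102, reached by Prpf8 (mean -1.74 with a standard error of 0.33) and Sf3b2 (-1.37 with 0.34). Under median centring the fit called 306 genes, and among them 5 members, Hnrnpa3, Snrpg, Hnrnpab, Hnrnpk and Hnrnpf (limma adjusted p from 0.034 to 0.048), all higher. With only genes well above background in all 4 pools, 34 genes and no member were called. The fit took the 2 arrays as replicates of 1 comparison, so a difference between the Cre systems counted as spread. Dye and genotype cannot be told apart in this fit.

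Probes of the same gene often differed. With the mean over a gene's detected probes in place of its brightest one, 5 of the 34 members below 0 on the Cd4Cre array lay above it and 5 of the 36 above 0 lay below it. The Foxp3Cre array gave 5 of 42 and 5 of 28. Of 46 members with several detected probes, 16 had probes over 1 apart on at least 1 array, 10 on Cd4Cre and 9 on Foxp3Cre. The median span between the lowest and the highest probe was 0.64 and 0.57 against a technical error of 0.21 for 1 probe. These 16 included Sfswap, Srek1, Srsf11, Hnrnpa3 and Hnrnpll, and none of Prpf8, Snrnp70, Sf3b3, Sf3a1, Sugp2 or Snrpb2. Which transcripts or gene copies each probe read was not tested.

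**Figure D5:**
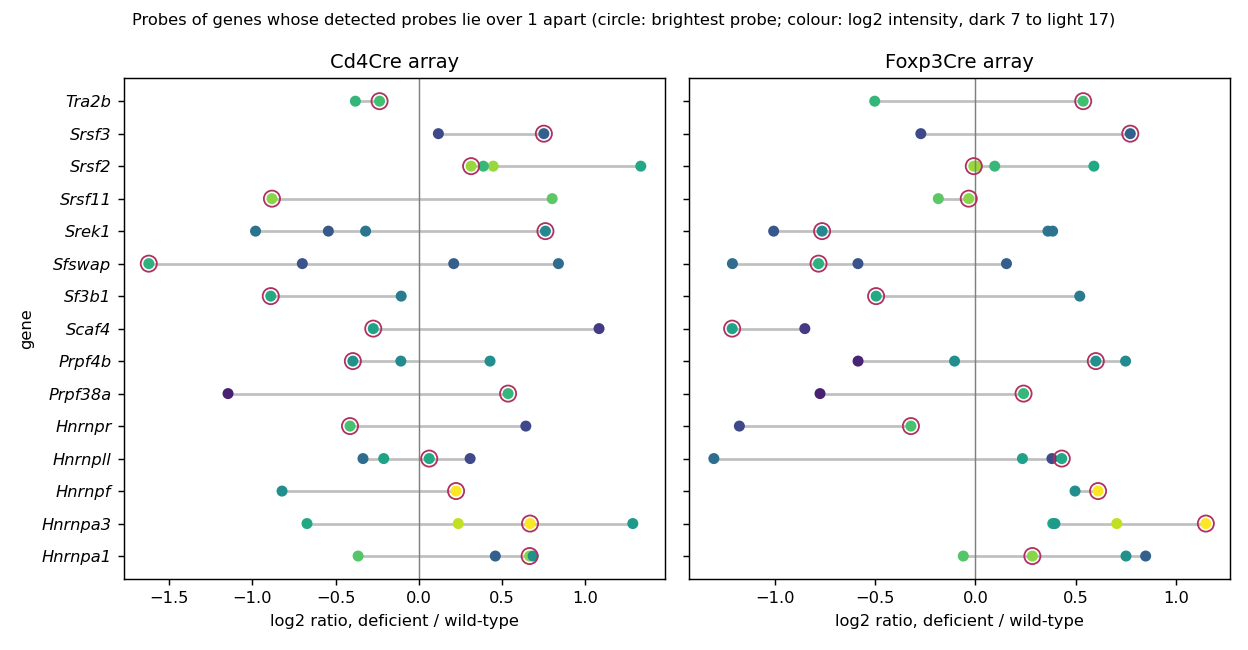
For 15 of the 16 members whose detected probes lay over 1 apart on an array, each point is 1 probe, placed by its log2 ratio of deficient over wild-type signal on the horizontal axis, with genes along the vertical axis and 1 panel per array; colour gives the log2 intensity and a circle marks the brightest probe. Sfswap spans -1.62 to 0.84 on the Cd4Cre array, and Hnrnpll spans -1.31 to 0.43 on the Foxp3Cre array.

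Further genes of the pathway, from lists chosen by function, had the following values, to be read against the shares of all genes at least 2-fold higher and lower, 11.4% and 10.6% (Cd4Cre) and 2.93% and 11.5% (Foxp3Cre). Of 63 detected other spliceosome components, 8 stood at least 2-fold higher and 4 lower on the Cd4Cre array (median 0.19), and 0 and 7 on the Foxp3Cre array (median 0.03). Median centring gave medians of 0.48 and 0.61. The lowest by their mean were Sart3 (-1.46 and -1.53), a U6 recycling factor, the U5 helicase Snrnp200 (-1.19 and -1.66), a direct partner of Prpf8, and Sart1 (-1.22 and -1.49), a tri-snRNP protein. The highest were Lsm5 (1.68 and 0.41), of the ring on U6 RNA, Snrnp35 (1.47 and 0.35), of the minor spliceosome, and Ppih (1.28 and 0.41), of the U4/U6 particle. Under median centring Sart3, Snrnp200 and Sart1 stayed below 0 on both arrays, at -0.62 and -0.82, -0.48 and -0.95, and -0.23 and -0.62.

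Of 21 snRNP assembly genes, none reached 2-fold on the Cd4Cre array, where 17 lay above 0 (median 0.33), and on the Foxp3Cre array Ncbp2, of the cap binding complex, was higher (0.87 and 1.02) and Gemin4 lower (0.09 and -1.07). Of 22 SR kinases, SR-like partners and export genes, 2 were at least 2-fold higher and 3 lower on the Cd4Cre array (median -0.51), and 0 and 5 on the Foxp3Cre array (median -0.19). Clk2, a kinase of SR proteins, read -1.04 and -1.94, the nuclear speckle gene Son -1.69 and -1.05, and the export adaptor Alyref 2.45 and 0.19. Median centring brought the medians of the assembly genes to 0.49 on both arrays and those of the SR partner list to -0.04 and 0.10. It brought Son to 0.03 on the Foxp3Cre array and left Clk2 at -0.999 and -1.89.

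Of 43 detected other RNA-binding regulators, 4 were at least 2-fold higher and 4 lower on the first array (median -0.13), and 0 and 5 on the second (median -0.31), with Rbm10 at -1.12 and -1.24 and Qk at 1.66 and 0.79. Of 13 genes of the exon junction complex and of nonsense-mediated decay, 1 was at least 2-fold higher and 2 lower (median -0.23), then 0 and 3 (median -0.74). Magohb read 2.38 and 0.72, and Smg5, a decay factor, -1.54 and -1.09. With median centring the median of the RNA-binding regulators turned to 0.42 and 0.35, and that of the junction and decay genes became 0.30 and -0.09. The fit called 0 genes in each of these lists.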

How the data were processed

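RNA of each Cre system was read on 1 two-colour Agilent array (2 in all). The authors deposited, per spot, the mean and background intensity of each channel and the scanner software's log10 ratio, read by Feature Extraction 10.5.1.1 and 10.7.3.1 per the file headers (10.5.1 per the submitters' processing notes). The deposited value table equalled that log10 ratio (largest difference 0).

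Intensities were corrected with normexp (offset 50), outlier spots were left out, and ratios were loess-normalized per array with zero weight for control spots (limma 3.58.1, R 4.3.3). Pool signals came from Aquantile scaling. Spots of a probe were averaged, and a gene took its brightest probe. Detected means well above background in 1 channel or more. Probes were named through RefSeq (GRCm38.p6): of 41174, 24844 by accession, 6045 by symbol and 1810 by synonym. Coordinates are mm9 as deposited. The fit of the mean over both arrays used limma on all 14364 genes with Benjamini-Hochberg adjustment, and was checked on simulated data.

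The members and gene lists were chosen with earlier results of these data known. Named were members at least 2-fold on either array, the 4 highest and 4 lowest per class by their mean, members whose probes disagreed by over 1, undetected members, members opposite in sign by over 0.5 on each array, and the 3 highest and 3 lowest genes of each other list, of which the text gives some. The remaining members are described with their values, except 1 member that is counted but not reported here. Alternatives changed the background correction, normalization, probe choice, dim-probe filter, outlier spots, fold threshold and the variance trend. Removing a GC trend was added after seeing the data. Whether same-group samples came from separate sorts cannot be asked with 1 array per group.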

Additional observations from a re-analysis of the deposited data

How the results depend on the processing

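Median centring without loess changed the most. On the Cd4Cre array the medians became 1.75 (Snrp), 0.079 (SF3), 0.23 (Prpf), 0.099 (SR) and 0.86 (hnRNP), so the SF3, Prpf and SR medians changed sign. On the Foxp3Cre array they became 0.91, -0.066, -0.12, 0.13 and 0.88, so the SR and hnRNP medians changed sign. Members at least 2-fold higher became 21 and 16 (30.0% and 22.9%, against 2858 of 15865 and 2043 of 15172 genes in all), and at least 2-fold lower 3 and 2: Prpf8, Prpf40b and Sfswap on the first array, Prpf8 and Sugp2 on the second. Of 34 members below 0 on the Cd4Cre array 17 turned above it, and of 42 on the Foxp3Cre array 21 did. The fit then called 306 genes and 5 members, against 34 genes where both channels had to be well above background. With the mean over a gene's detected probes the SR median on the Cd4Cre array was -0.051. The count of members at least 2-fold higher on the Foxp3Cre array was 0 with that mean, with the scanner software's ratio and with the deposited value table. At 1.5-fold the counts were 17 higher and 14 lower, then 5 and 19. The cause of these changes was not tested. Of 76 values of named members, 68 moved beyond their technical error with median centring, 33 with the mean over probes, 6 with the scanner software's ratio and with the value table, 2 with the GC trend removed, and 0 under the other settings. Among those, requiring both channels or keeping outlier spots left the medians of the member groups unchanged, so these settings were no separate check.

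No paired analysis was possible because each group has 1 array. Leaving out an array leaves the value of the other, with no test. One array per Cre system limits the precision of every value, and spot-level errors cover technical error only.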
